A study of Mus musculus with 16 samples.

Results

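The 10 genes described here, *Afp*, *Alb*, *Ttr*, *Apoa1*, *Apoa4*, *Trf*, *Hnf4a*, *Hhex*, *Foxa1* and *Foxa3*, are products and regulators of the liver bud and the visceral endoderm. They were chosen by gene symbol from the 26411 genes counted in each embryo. Of these, 6 encode secreted blood proteins and 4 encode transcription factors, and 9 of the 10 had enough reads to enter the tests, the exception being *Apoa4*. RNA of 16 whole mouse embryos, taken at embryonic day (E) 9.5, was sequenced to ask how far extra copies of the histone acetyltransferase gene *Kat6b* make up for the loss of its close relative *Kat6a*. There were 4 single embryos, 2 female and 2 male, of each of 4 genotypes on a mixed FVB and BALB/c background. Wild-type embryos were *Kat6a+/+Kat6b+/+*. *Kat6a-/-Kat6b+/+* embryos, called *Kat6a-/-* here, had a null allele lacking exons 5 to 9 of *Kat6a* in every cell. *Kat6a+/+Tg(Kat6b)* embryos, called *Tg(Kat6b)*, carried a bacterial artificial chromosome transgene with the entire *Kat6b* gene in addition to the endogenous copies. *Kat6a-/-Tg(Kat6b)* embryos combined the null allele with the transgene. Each embryo is a biological replicate, but embryos share litters.

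The visceral endoderm is the outer cell layer of the early embryo and later of the yolk sac, and it secretes serum proteins before the liver does. The liver bud grows out of the foregut at about the stage studied, and its first hepatoblasts switch on the same secreted proteins. In both tissues the genes are activated by a shared set of regulators, among them forkhead (FOXA) proteins, HNF1 proteins, GATA proteins and the nuclear receptor HNF4A. The sources used here do not state whether yolk sac was left on these embryos, and attached yolk sac would raise the secreted-protein genes together. In RNA from whole embryos, fewer cells of a type and less RNA per cell cannot be told apart.

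The total count per embryo was between 14407277 and 45665680, and values are given as CPM, read counts divided by library sizes that were scaled by the TMM method. *Kat6b* averaged 46.2 CPM in wild-type and 49.1 CPM in *Kat6a-/-* embryos, against 192 CPM in *Tg(Kat6b)* embryos. In *Kat6a-/-Tg(Kat6b)* embryos its mean was 197 CPM. Average gene totals of *Kat6a*, in the same order of genotypes, were 199, 202, 179 and 192 CPM, and such totals do not show whether exons 5 to 9 are present. The third *Tg(Kat6b)* embryo had the lowest or joint lowest value of all 16 embryos for 8 of the 9 tested genes described here. Its total count of 23801770 was near the middle of the range. The third wild-type embryo, from the same litter 2597, was among the 3 lowest embryos for 3 of the 9. Low rank in the third *Tg(Kat6b)* embryo was not limited to these genes. Among genes of the other lists, it was lowest for *Gata4*, *Gata6*, *Rbp4*, *Apoe*, *Krt8* and *Krt18*. It was not lowest for *Foxa2*, *Cebpa*, *Dab2*, *Onecut2* or *Hand1*. The share of all tested genes that were lowest in this embryo was not counted. Litters 801 and 803 held wild-type and *Kat6a-/-* embryos, litters 2597 and 2598 held wild-type and *Tg(Kat6b)* embryos, and litters 483 and 498 held only *Kat6a-/-Tg(Kat6b)* embryos. Litter and genotype therefore cannot be told apart for the *Kat6a-/-Tg(Kat6b)* group.

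The promoter stretches of *Afp*, *Alb*, *Apoa1* and *Hnf4a* are shown first, because 3 of these genes (*Afp*, *Alb* and *Hnf4a*) varied most closely together over the embryos and *Apoa1* holds a pair of FOXA matches. The sequences are RefSeq promoter windows (assembly GRCm38.p6), of which the 250 bases before the transcript start were searched. Each was found once in GRCm39, the genome build of the count files, and is given with its GRCm39 position, 5′ to 3′ on the strand of the gene, ending before the first base that the GENCODE annotation places in an exon, or before a motif that this base would split. All 4 genes lie on the plus strand. Capitals mark a match, on either strand, to one of the motifs searched. The letters TATAAA stand for the TATA box and CCAAT for the box of that name. TGTTTAC is bound by FOXA proteins, as is the variant TGTTTGC. The letters CAAAGTC belong to sites of HNF4 proteins, with AGTCCAA as a further form. GTTAAT is the core of sites for HNF1 proteins, and the letters AGATAA are read by GATA factors. The stretches are *Afp* at chr5:90638323-90638572, *Alb* at chr5:90608479-90608646, *Apoa1* at chr9:46139678-46139877 and the upstream one of 2 *Hnf4a* starts at chr2:163348527-163348724.
Afp: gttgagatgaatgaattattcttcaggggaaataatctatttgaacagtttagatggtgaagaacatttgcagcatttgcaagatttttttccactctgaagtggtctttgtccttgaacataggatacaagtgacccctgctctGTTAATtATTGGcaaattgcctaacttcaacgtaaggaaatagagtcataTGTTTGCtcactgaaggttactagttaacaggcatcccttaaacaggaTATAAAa
Alb: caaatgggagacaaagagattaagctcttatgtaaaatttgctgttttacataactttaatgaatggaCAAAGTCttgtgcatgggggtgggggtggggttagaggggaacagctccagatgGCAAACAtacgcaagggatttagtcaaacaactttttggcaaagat
Apoa1: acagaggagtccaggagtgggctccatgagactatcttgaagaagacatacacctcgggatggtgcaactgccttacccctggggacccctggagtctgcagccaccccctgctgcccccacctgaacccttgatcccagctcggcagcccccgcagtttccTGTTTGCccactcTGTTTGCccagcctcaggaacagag
Hnf4a: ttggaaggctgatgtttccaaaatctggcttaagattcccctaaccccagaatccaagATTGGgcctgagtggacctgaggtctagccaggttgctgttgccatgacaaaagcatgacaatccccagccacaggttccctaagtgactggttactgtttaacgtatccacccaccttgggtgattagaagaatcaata

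RefSeq windows were used for 8 of the 10 genes, 9 windows in all, since *Hnf4a* has 2. In the *Afp* window the HNF1 letters GTTAAT lay 105 to 100 bases before the start, overlapped by no other motif, and the FOXA letters TGTTTGC lay 55 to 49 bases before it. The TATA box letters of *Afp* ended 2 bases before the listed start. The *Alb* window held the HNF4 letters CAAAGTC 182 to 176 bases before the start and the FOXA letters on the opposite strand at 128 to 122 bases, and GTTAAT at 32 to 27 bases, past the printed stretch. The FOXA letters TGTTTGC stood in *Apoa1* at both 88 to 82 and 75 to 69 bases before the start. The downstream *Hnf4a* window, which overlaps an exon and is not printed, held GTTAAT on the opposite strand at 81 to 76 and at 74 to 69 bases, and the upstream one held AGATAA 52 to 47 bases before the start, past the end of the printed stretch. *Foxa1* held TGTTTAC on the opposite strand, and *Foxa3* held TATAAA 36 to 31 bases before the start. The window of *Hhex* held CCAAT alone, and that of *Apoa4* held none of the motifs.

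For comparison, of the 32851 mouse promoter windows of the same length, 6.43% held GTTAAT, against 3 of the 9 windows here. TGTTTGC was in 4.3% of all windows and in 3 of the 9, TGTTTAC in 3.17% and in 1, and CAAAGTC in 3.84% and in 1. AGTCCAA was in 2.58% of all windows and in none of the 9. TATAAA was in 12.4% and in 2 of the 9, AGATAA in 9.99% and in 1, and CCAAT in 33.8% and in 7. These are matches of letters only.

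The levels per gene length differed by more than an order of magnitude. As RPKM, the CPM divided by gene length in kilobases, *Afp* was the highest in wild-type embryos, at 14.5 ± 7.57 (SD, n = 4). *Foxa1* at 3.88 ± 0.43, *Hhex* at 3.51 ± 0.323 and *Trf* at 2.9 ± 0.523 RPKM followed. *Ttr* averaged 1.26 ± 0.922, *Apoa1* 0.557 ± 0.202 and *Alb* 0.513 ± 0.364 RPKM. *Foxa3* at 0.294 ± 0.114 and *Hnf4a* at 0.262 ± 0.13 RPKM were the lowest of the genes with reads in this group, and *Apoa4* had none. From *Afp* down to *Hnf4a*, the ranges of each gene and the next one overlapped over the 4 wild-type embryos. In *Kat6a-/-* embryos the order changed, with *Afp* at 2.44 ± 1.26 RPKM behind *Foxa1*, *Trf* and *Hhex*. *Afp* was again, in *Kat6a-/-Tg(Kat6b)* embryos, the highest at 15.5 ± 2.76 RPKM, and its range did not overlap that of *Hhex*, the next gene.

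**Figure D1:**
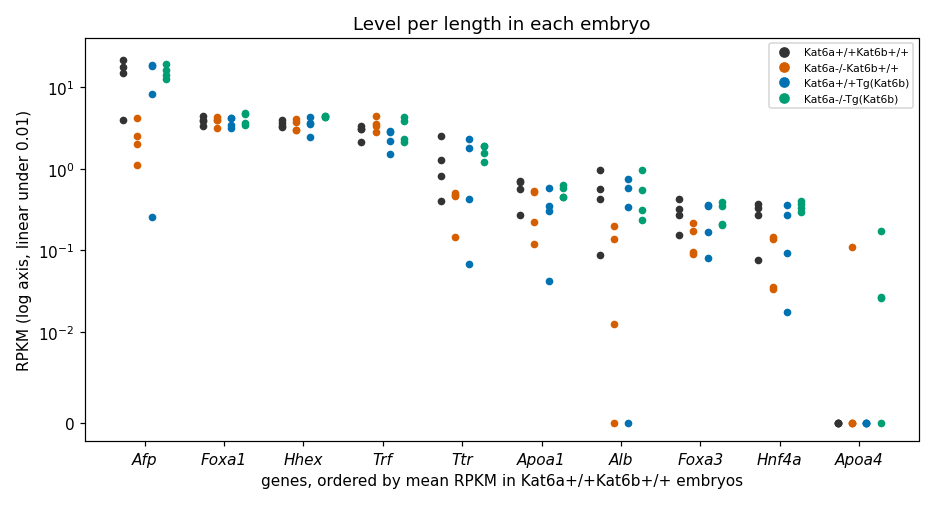
RPKM (log axis, linear under 0.01) of each of the 10 genes, ordered by their mean in wild-type embryos, where each point is 1 embryo and the colours are the 4 genotypes. *Afp* spans 0.257 to 21.5 RPKM, while *Foxa1* stays between 3.16 and 4.86 RPKM.

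The secreted proteins were led by *Afp* (Entrez Gene 11576, chromosome 5, 90638584 to 90656766 of GRCm39, plus strand), which encodes alpha-fetoprotein, the main serum protein of the fetus. The wild-type embryos, in the order of their replicate numbers, had 37.1, 30.6, 8.13 and 44.8 CPM. The *Kat6a-/-* embryos had 2.32, 4.14, 5.32 and 8.6 CPM. All but the third wild-type embryo were above every *Kat6a-/-* embryo, so that the ranges touched only through 8.13 and 8.6 CPM. The *Tg(Kat6b)* embryos had 38.8, 37.3, 0.536 and 17.3 CPM, which ran from near the highest to the lowest value of the series. The *Kat6a-/-Tg(Kat6b)* embryos had 34, 26.3, 39.5 and 29.4 CPM, close to each other and all above the *Kat6a-/-* embryos.

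Mean *Afp* was 30.2 ± 15.8 CPM (SD, n = 4) in wild-type embryos, and in *Kat6a-/-* embryos it was 5.1 ± 2.64 CPM (SD, n = 4). In the model over all embryos its log2 fold change in *Kat6a-/-* vs. wild-type was -2.48 (SE 0.857, 95% confidence interval -4.38 to -0.575), or 5.58-fold lower, and it did not pass the threshold (edgeR FDR = 0.199). In *Kat6a-/-Tg(Kat6b)* vs. *Kat6a-/-* embryos it was 2.52 (SE 0.866, interval 0.594 to 4.44), or 5.73-fold higher (edgeR FDR = 0.112). Both calls changed when the third *Tg(Kat6b)* embryo was left out. This embryo belongs to neither comparison but enters the shared fit, and the cause of the change was not tested. *Afp* then fell in *Kat6a-/-* vs. wild-type with an edgeR FDR of 0.049, where 2.24% of all tested genes were called, and rose in *Kat6a-/-Tg(Kat6b)* vs. *Kat6a-/-* with an edgeR FDR of 0.0193, where 7.87% were called.

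*Alb* (Entrez Gene 11657, chromosome 5, 90608647 to 90624696, plus strand) encodes albumin, the main serum protein after birth, and is the neighbour of *Afp*, 13887 bases away. Its levels were far lower, at 1.18, 0.884, 0.179 and 1.99 CPM in wild-type embryos. In *Kat6a-/-* embryos they were 0, 0.0261, 0.414 and 0.282 CPM, from 0, 1, 7 and 10 reads. The third wild-type embryo fell within the range of the *Kat6a-/-* embryos, and the other wild-type embryos lay above it. The *Tg(Kat6b)* embryos had 1.2, 1.54, 0 and 0.699 CPM and the *Kat6a-/-Tg(Kat6b)* embryos 1.15, 0.489, 1.97 and 0.637 CPM, the latter all above the *Kat6a-/-* embryos. On the log2 scale the fold change was -2.57 (SE 1.1) in *Kat6a-/-* vs. wild-type (edgeR FDR = 0.296), or -1.90 without the fourth wild-type embryo, and 2.69 (SE 1.09) in *Kat6a-/-Tg(Kat6b)* vs. *Kat6a-/-* (edgeR FDR = 0.167). The second passed the threshold without the third *Tg(Kat6b)* embryo (edgeR FDR = 0.0234).

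*Ttr* (Entrez Gene 22139) encodes transthyretin, a carrier of thyroid hormone and of retinol-binding protein. The wild-type embryos had 1.57, 0.994, 0.491 and 3.09 CPM and the *Kat6a-/-* embryos 0.609, 0.573, 0.177 and 0.564 CPM. The *Tg(Kat6b)* embryos had 2.81, 2.17, 0.0825 and 0.524 CPM and the *Kat6a-/-Tg(Kat6b)* embryos 1.46, 1.91, 2.34 and 2.28 CPM. As with *Afp*, the *Kat6a-/-* values were low throughout and overlapped the wild-type values only through the third wild-type embryo, and all *Kat6a-/-Tg(Kat6b)* embryos lay above all *Kat6a-/-* embryos. In the model its log2 fold change was -1.56 (SE 0.837, edgeR FDR = 0.417) in *Kat6a-/-* vs. wild-type, or -0.77 without the fourth wild-type embryo, the highest of the series, and 1.8 (SE 0.811, edgeR FDR = 0.213) in *Kat6a-/-Tg(Kat6b)* vs. *Kat6a-/-*. Exons of *Gm16090* on the opposite strand cover 3.67% of the exon bases of *Ttr*, and the library kit does not mark strand.

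*Apoa1* (Entrez Gene 11806, chromosome 9, 46139878 to 46142212, plus strand), the main protein of high-density lipoprotein, was counted 1 to 20 times per embryo. It had 0.696, 0.552, 0.268 and 0.686 CPM in wild-type and 0.221, 0.521, 0.118 and 0.507 CPM in *Kat6a-/-* embryos. It had 0.578, 0.298, 0.0412 and 0.349 CPM in *Tg(Kat6b)* and 0.573, 0.444, 0.617 and 0.439 CPM in *Kat6a-/-Tg(Kat6b)* embryos. The groups overlapped in every comparison. The log2 fold change was -0.45 (SE 0.473, edgeR FDR = 0.695) in *Kat6a-/-* vs. wild-type and 0.29 (SE 0.472, edgeR FDR = 0.759) in *Kat6a-/-Tg(Kat6b)* vs. *Kat6a-/-*.

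*Apoa4* (Entrez Gene 11808, chromosome 9, 46151994 to 46154757, plus strand), an apolipoprotein of the intestine and yolk sac that lies 9781 bases from *Apoa1*, had no read in 12 of the 16 embryos. A count of 0 allows up to 3 reads, or between 0.0659 and 0.206 CPM depending on the depth of the embryo, and covers counting error only. More than 3 reads were found in 2 embryos, 7 reads in the second *Kat6a-/-* and 9 reads in the first *Kat6a-/-Tg(Kat6b)* embryo. Exons of *Gm10680* and *Gm47528* on the opposite strand cover 69.8% of its exon bases, so these reads cannot be assigned to *Apoa4* with certainty. It was not tested.

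*Trf* (Entrez Gene 22041, chromosome 9, 103081200 to 103107814, minus strand) encodes transferrin, the iron carrier of plasma, and is also made outside the liver. It had 7.14, 7.07, 5 and 7.83 CPM in wild-type and 8.24, 6.62, 10.2 and 7.75 CPM in *Kat6a-/-* embryos. It had 6.65, 6.78, 3.55 and 5.02 CPM in *Tg(Kat6b)* and 8.91, 4.93, 10.1 and 5.38 CPM in *Kat6a-/-Tg(Kat6b)* embryos. Unlike the other tested secreted proteins, *Trf* was on average higher in *Kat6a-/-* than in wild-type embryos, with a log2 fold change of 0.28 (SE 0.237, interval -0.236 to 0.792, edgeR FDR = 0.629), and the groups overlapped. It was -0.13 in *Kat6a-/-Tg(Kat6b)* vs. *Kat6a-/-* embryos (SE 0.237, interval -0.647 to 0.38, edgeR FDR = 0.784). Exons of *Gm69171* on the opposite strand cover 2.58% of its exon bases.

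The ratio of *Afp* to *Trf*, which does not depend on library size, lay between 1.63 and 5.72 in wild-type and between 0.282 and 1.11 in *Kat6a-/-* embryos. It lay between 0.151 and 5.83 in *Tg(Kat6b)* and between 3.82 and 5.46 in *Kat6a-/-Tg(Kat6b)* embryos. The wild-type and *Kat6a-/-* ranges of this ratio did not overlap, unlike those of *Afp* itself. Mean *Trf*, the divisor, was higher in *Kat6a-/-* than in wild-type embryos (8.19 against 6.76 CPM), which widens the difference. The lowest wild-type ratio, 1.63, was that of the third embryo. How many other ratios of genes separate these groups was not counted. The ratio of *Afp* to *Hnf4a* lay between 19.8 and 29.4 in wild-type and between 8.18 and 26.5 in *Kat6a-/-* embryos, and these ranges overlapped. *Afp* made up 57.8% to 77.8% of the summed CPM of the 6 secreted-protein genes in wild-type embryos, 20.4% to 48.6% in *Kat6a-/-* embryos, 12.7% to 77.6% in *Tg(Kat6b)* embryos, and 72.4% to 77.1% in *Kat6a-/-Tg(Kat6b)* embryos.

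**Figure D2:**
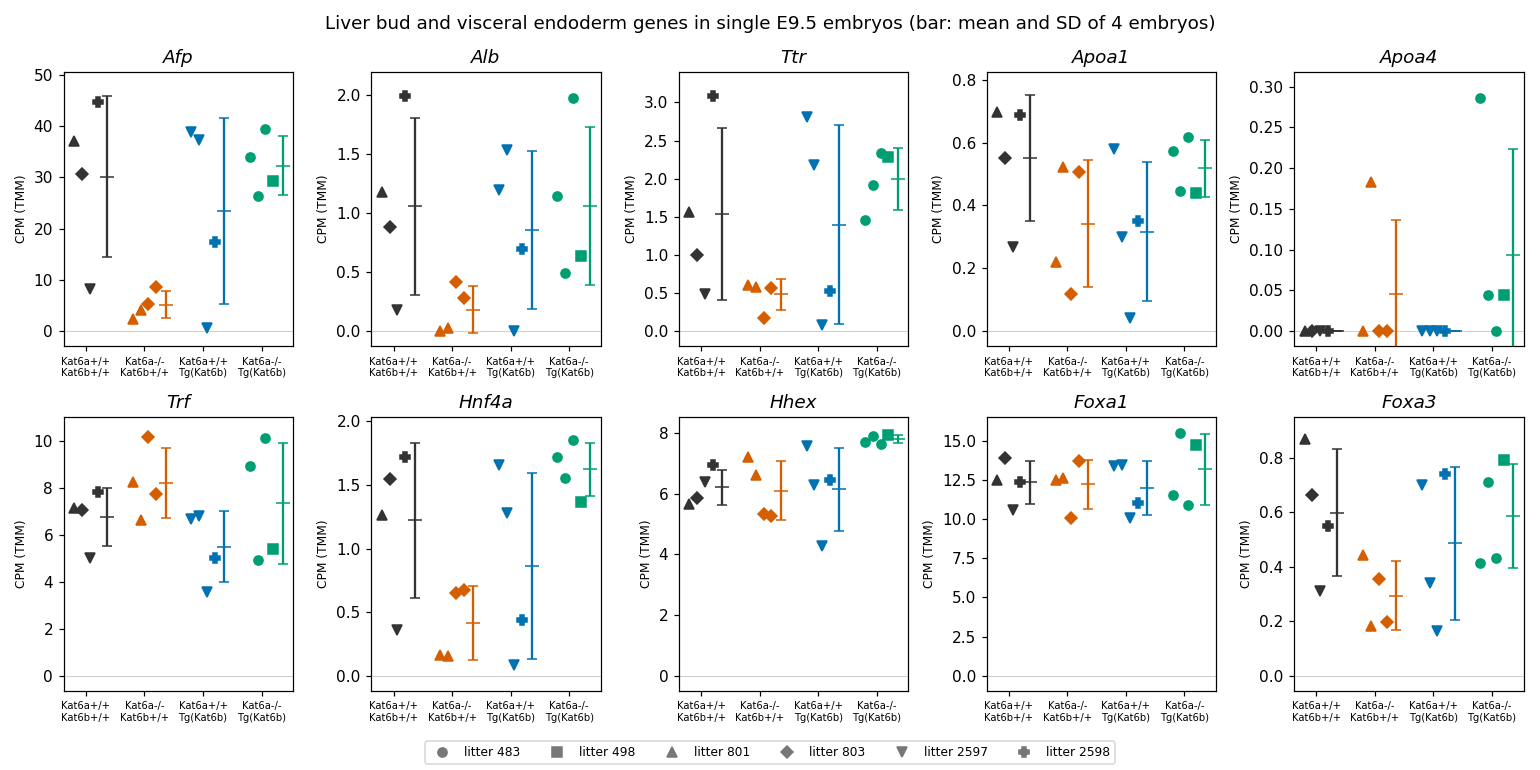
CPM of the 10 genes in each embryo by genotype, 1 panel a gene with its own axis from 0. Symbols mark the litter and the bar to the right of each group is the mean and SD of 4 embryos. In *Afp*, the 4 *Kat6a-/-* embryos lie between 2.32 and 8.6 CPM and the 4 *Kat6a-/-Tg(Kat6b)* embryos between 26.3 and 39.5 CPM, while *Foxa1* and *Trf* show no such separation.

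Among the transcription factors, *Hnf4a* (Entrez Gene 15378, chromosome 2, 163348728 to 163414830, plus strand) encodes the nuclear receptor that drives secreted-protein genes in visceral endoderm and hepatocytes. The wild-type embryos had 1.26, 1.55, 0.357 and 1.72 CPM, and the *Kat6a-/-* embryos 0.166, 0.156, 0.65 and 0.676 CPM. The *Tg(Kat6b)* embryos had 1.65, 1.28, 0.0825 and 0.437 CPM, and the *Kat6a-/-Tg(Kat6b)* embryos 1.72, 1.56, 1.85 and 1.36 CPM. The pattern was that of *Afp*, with the third embryo of the wild-type and *Tg(Kat6b)* groups the lowest of its group and all *Kat6a-/-Tg(Kat6b)* embryos above all *Kat6a-/-* embryos. The log2 fold change was -1.5 (SE 0.679, interval -2.97 to -0.0254, edgeR FDR = 0.32) in *Kat6a-/-* vs. wild-type, and -0.89 without the fourth wild-type embryo. It was 1.87 (SE 0.653, interval 0.45 to 3.29, edgeR FDR = 0.106) in *Kat6a-/-Tg(Kat6b)* vs. *Kat6a-/-*, and *Hnf4a* rose in this comparison when the third *Tg(Kat6b)* embryo was left out (edgeR FDR = 0.0127).

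*Hhex* (Entrez Gene 15242, chromosome 19, 37423258 to 37429179, plus strand), a homeobox gene needed for the outgrowth of the liver bud and also expressed in endothelium and thyroid, was steady. It had 5.66, 5.85, 6.38 and 6.93 CPM in wild-type and 7.19, 6.62, 5.32 and 5.27 CPM in *Kat6a-/-* embryos. It had 7.56, 6.27, 4.29 and 6.46 CPM in *Tg(Kat6b)* and 7.7, 7.91, 7.65 and 7.93 CPM in *Kat6a-/-Tg(Kat6b)* embryos. All 4 *Kat6a-/-Tg(Kat6b)* embryos were above the 12 others, by a small margin. The share of all tested genes with this pattern was not counted, and litter and genotype cannot be told apart for this group. The log2 fold change was -0.039 (SE 0.132, interval -0.312 to 0.235, edgeR FDR = 0.923) in *Kat6a-/-* vs. wild-type, and this sign reversed with litter as a block. It was 0.32 (SE 0.13, edgeR FDR = 0.133) in *Kat6a-/-Tg(Kat6b)* vs. *Kat6a-/-*, 0.29 (SE 0.136, edgeR FDR = 0.388) in *Kat6a-/-Tg(Kat6b)* vs. wild-type and 0.29 (SE 0.138, edgeR FDR = 0.254) in *Kat6a-/-Tg(Kat6b)* vs. *Tg(Kat6b)*. The call in *Kat6a-/-Tg(Kat6b)* vs. *Kat6a-/-* passed the threshold when the first *Tg(Kat6b)* embryo was left out (edgeR FDR = 0.0398), in a fit that called 10.6% of all tested genes.

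*Foxa1* (Entrez Gene 15375, chromosome 12, 57587414 to 57593702, minus strand), a forkhead factor that opens chromatin in endoderm and is also expressed in the floor plate and notochord, had 12.5, 13.9, 10.6 and 12.4 CPM in wild-type embryos. It had 12.5, 12.6, 10 and 13.7 CPM in *Kat6a-/-*, 13.4, 13.4, 10.1 and 11 CPM in *Tg(Kat6b)* and 11.5, 15.5, 10.9 and 14.7 CPM in *Kat6a-/-Tg(Kat6b)* embryos. The groups overlapped throughout. Its log2 fold change was -0.0090 (SE 0.0927, interval -0.202 to 0.183, edgeR FDR = 0.974) in *Kat6a-/-* vs. wild-type and -0.029 (SE 0.0945, interval -0.225 to 0.167, edgeR FDR = 0.89) in *Kat6a-/-Tg(Kat6b)* vs. *Kat6a-/-*, and both signs reversed under some alternatives.

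*Foxa3* (Entrez Gene 15377, chromosome 7, 18747209 to 18757471, minus strand), a forkhead factor of the definitive endoderm and later of the liver, was counted 4 to 36 times per embryo. It had 0.871, 0.663, 0.313 and 0.549 CPM in wild-type and 0.443, 0.182, 0.355 and 0.197 CPM in *Kat6a-/-* embryos. It had 0.702, 0.341, 0.165 and 0.742 CPM in *Tg(Kat6b)* and 0.414, 0.711, 0.432 and 0.791 CPM in *Kat6a-/-Tg(Kat6b)* embryos. The third wild-type embryo again overlapped the *Kat6a-/-* group. *Foxa3* had a log2 fold change of -1.19 (SE 0.445, interval -2.11 to -0.264, edgeR FDR = 0.193) in *Kat6a-/-* vs. wild-type and 0.86 (SE 0.447, interval -0.0706 to 1.79, edgeR FDR = 0.255) in *Kat6a-/-Tg(Kat6b)* vs. *Kat6a-/-*, where the groups overlapped.

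**Figure D3:**
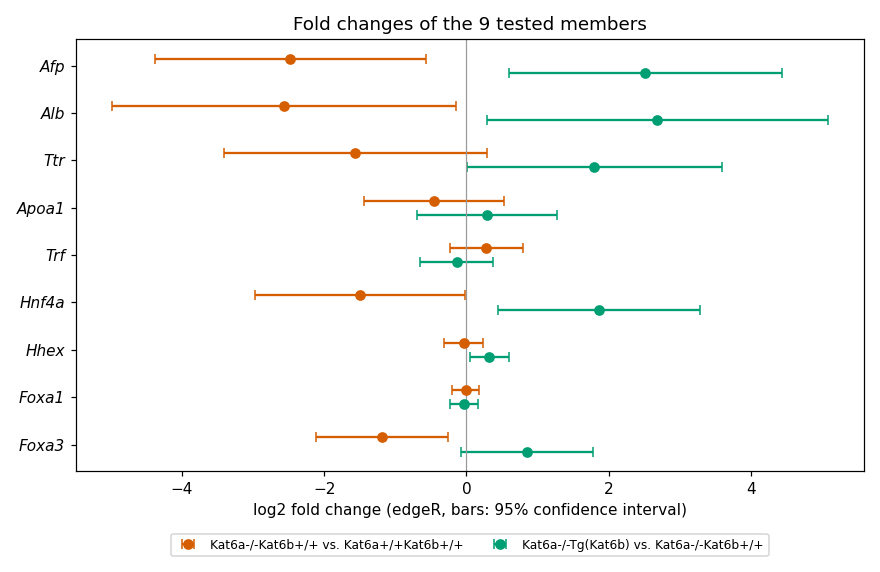
Log2 fold change (x axis) of the 9 tested genes with its 95% confidence interval, for *Kat6a-/-* vs. wild-type and for *Kat6a-/-Tg(Kat6b)* vs. *Kat6a-/-* embryos. The points of *Afp* lie at -2.48 and 2.52 and those of *Foxa1* at -0.0090 and -0.029, and none of the values shown passed the threshold. The comparisons share the *Kat6a-/-* embryos.

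Counted over the group, none of the 9 tested genes passed an edgeR FDR of 0.05 in *Kat6a-/-* vs. wild-type embryos, where 1.88% of the 15679 tested genes did. At an unadjusted p under 0.05 there were 4 of 9 (*Afp*, *Alb*, *Hnf4a* and *Foxa3*), against 15.2% of all genes. It was below 0 on the log2 scale for 8 of the 9, and its median was -1.19, beside a median of 0.0033 over all tested genes. None of the 9 had *Kat6a-/-* embryos that all lay below all wild-type embryos, a pattern that 4.01% of all tested genes showed. DESeq2 and limma-voom called none of the 9 either.

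In *Kat6a-/-Tg(Kat6b)* vs. *Kat6a-/-* embryos 0 of 9 passed edgeR's threshold, where 7.14% of all tested genes did, and 5 of 9 had an unadjusted p under 0.05 (*Afp*, *Alb*, *Ttr*, *Hnf4a* and *Hhex*), against 23.2% of all genes. In the same 5 genes all *Kat6a-/-Tg(Kat6b)* embryos lay above all *Kat6a-/-* embryos, which was so for 7.29% of all tested genes. The median log2 fold change of the 9 was 0.86, beside -0.0049 over all tested genes. DESeq2 called 1 of the 9, *Afp* (FDR = 0.0353), and 8.39% of all tested genes. A fit of these 8 embryos alone with no surrogate variable called 3, *Afp* (edgeR FDR = 0.00997), *Hnf4a* (0.00665) and *Ttr* (0.00116), and 7.37% of all tested genes, whereas a fit of all 16 embryos with no surrogate variable called 0.

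When *Kat6a-/-Tg(Kat6b)* were compared with wild-type embryos, none of the 9 passed, with 0.67% of all tested genes called, and the edgeR FDR was 0.388 or higher. Log2 fold changes were 0.040 (SE 0.758, interval -1.65 to 1.72) for *Afp* and 0.37 (SE 0.58, interval -0.89 to 1.63) for *Hnf4a*, wide intervals that include 0. Only *Hhex* had an unadjusted p under 0.05, as 12.7% of all tested genes did. In *Tg(Kat6b)* vs. wild-type embryos none passed, with 0.14% of all tested genes called, no unadjusted p was under 0.05 (11.5% of all tested genes), and the edgeR FDR was 0.658 or higher. Here the log2 fold change was -0.29 (SE 0.743) for *Afp* and -0.33 (SE 0.62) for *Hnf4a*, and both were above 0 without the fourth wild-type embryo (0.30 and 0.23) and without the third *Tg(Kat6b)* embryo (0.19 and 0.11). In *Kat6a-/-Tg(Kat6b)* vs. *Tg(Kat6b)* embryos none passed, with 3.41% of all tested genes called. *Hhex* again had the lowest edgeR FDR (0.254) and the only unadjusted p under 0.05, against 18.9% of all tested genes, and the log2 fold change of *Afp* was 0.33 (SE 0.766). DESeq2 and limma-voom called none of the 9 in these 3 comparisons.

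Whether the transgene acted differently with and without *Kat6a* was tested as an interaction, the log2 fold change of *Kat6a-/-Tg(Kat6b)* vs. *Kat6a-/-* minus that of *Tg(Kat6b)* vs. wild-type. It was 2.81 (SE 1.15, interval 0.255 to 5.36) for *Afp*, 2.2 (SE 0.925, interval 0.19 to 4.21) for *Hnf4a*, 2.89 (SE 1.42) for *Alb* and 1.86 (SE 1.1) for *Ttr*. Without the fourth wild-type embryo these values were 2.05, 1.46, 1.95 and 0.86. Without the first *Tg(Kat6b)* embryo that of *Ttr* was 2.76, and without the second that of *Alb* was 3.54. The unadjusted p was under 0.05 for *Afp* and *Hnf4a* (0.0342 and 0.0344 from edgeR's test), against 14.6% of all tested genes, but none of the 9 passed the threshold (lowest edgeR FDR 0.308), with 0.153% of all tested genes called. DESeq2 and limma-voom also called none.

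Within litters, *Kat6a-/-* embryos could be set beside a wild-type sibling, and *Afp*, *Alb*, *Ttr*, *Apoa1*, *Hnf4a* and *Foxa3* were lower in 4 of 4 *Kat6a-/-* embryos than in the wild-type embryo of the same litter. These 6 of 9 genes stand beside 14.6% of all tested genes that were lower in 4 of 4, and the comparisons rest on 2 wild-type embryos. In litter 801, *Afp* was 37.1 CPM in the wild-type embryo and 2.32 and 4.14 CPM in the *Kat6a-/-* embryos. In litter 803 it was 30.6 CPM in the wild-type embryo and 5.32 and 8.6 CPM in the *Kat6a-/-* embryos. The log2 difference to the wild-type sibling ran from -3.95 to -1.82 for *Afp* and from -2.5 to -1.1 for *Hnf4a*, whereas *Trf* was lower in 1 of 4 and *Foxa1* and *Hhex* in 2 of 4. With litter as a block the log2 fold change of *Afp* in *Kat6a-/-* vs. wild-type was -2.76 (edgeR FDR = 0.693), with 0 of 9 genes called in a fit that called 0.116% of all tested genes. The low wild-type value of 8.13 CPM came from litter 2597, which held no *Kat6a-/-* embryo.

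Among *Tg(Kat6b)* embryos the direction differed between siblings. In litter 2597, *Afp* was 8.13 CPM in the wild-type embryo and 38.8, 37.3 and 0.536 CPM in the *Tg(Kat6b)* embryos, so that the highest and the lowest *Tg(Kat6b)* values came from 1 litter. The first *Tg(Kat6b)* embryo was lower than its wild-type sibling in 0 of 9 genes, the second in 1 and the third in 9 of 9. In litter 2598 the *Tg(Kat6b)* embryo was lower than its wild-type sibling in 8 of 9, with *Afp* at 17.3 against 44.8 CPM.

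**Figure D4:**
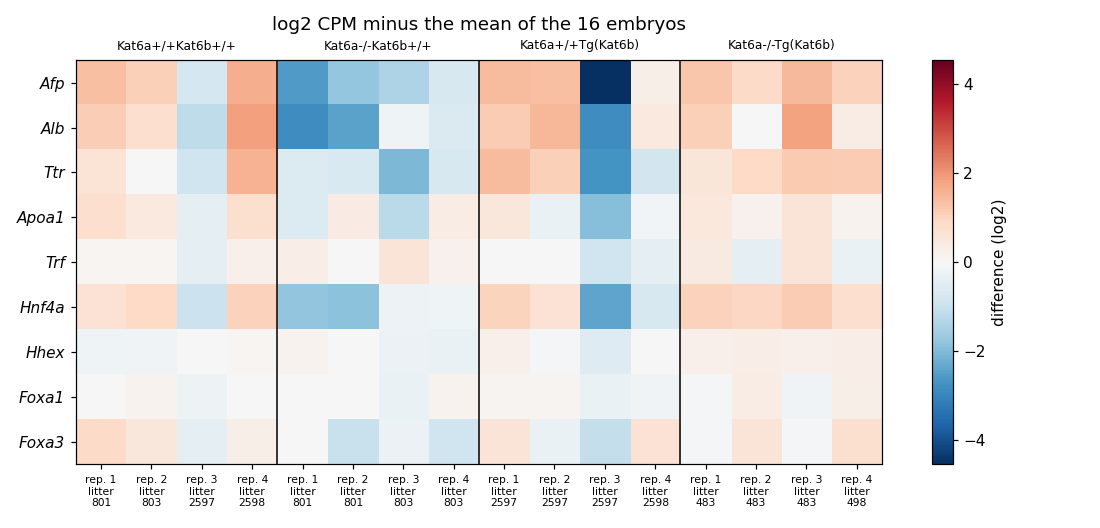
Log2 CPM of the 9 tested genes in each embryo minus the mean of the 16 embryos (colour, red higher and blue lower), with embryos in columns by genotype, replicate and litter. The third *Kat6a+/+Tg(Kat6b)* embryo is the lowest or joint lowest for 8 of the 9 genes, and *Hhex*, *Foxa1* and *Trf* vary the least.

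The genes did not vary independently. Over the 16 embryos, Pearson's r of log2 CPM between *Afp* and *Alb* was 0.93 (permutation p = 1e-05, the smallest that 100000 permutations can give, adjusted 0.000225 over 45 pairs), with Spearman's rho of 0.979 (permutation p = 1e-05, adjusted 0.00045). Between *Afp* and *Hnf4a*, r was 0.934 (permutation p = 2e-05, adjusted 0.000225) and rho 0.876 (permutation p = 5e-05, adjusted 0.00112). The 6 pairs among *Afp*, *Alb*, *Ttr* and *Hnf4a* had r between 0.755 and 0.934 and rho between 0.789 and 0.979, and all 6 stayed under an adjusted permutation p of 0.05. Without the 2 embryos farthest from the median of the first-listed gene of each pair, r of these pairs lay between 0.689 and 0.903. The embryos left out therefore differed between some pairs. After subtracting litter means, over the 15 embryos of litters with more than 1 embryo, it lay between 0.828 and 0.957, and after subtracting genotype means between 0.651 and 0.929. Litter and genotype were not removed together. The permutations shuffled all 16 embryos freely, so the permutation p-values take no account of shared genotype or litter.

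*Apoa1* followed these 4 genes less closely, with r between 0.63 and 0.809, and between 0.34 and 0.612 without the 2 farthest embryos. *Foxa3* had r between 0.6 and 0.694 with them, and between 0.339 and 0.69 without the 2 farthest embryos, and none of its 4 pairs had an adjusted permutation p under 0.05 for Spearman's rho (0.135 to 0.218). *Trf* had r between 0.28 and 0.411 with the same genes, and none of its 4 pairs had an adjusted permutation p under 0.05. After subtracting genotype means, r of *Trf* with these genes was higher, between 0.517 and 0.829. After subtracting litter means it lay between 0.466 and 0.584. For *Foxa1* r with the same genes over the 16 embryos lay between 0.216 and 0.613, falling to between 0.0329 and 0.365 without the 2 farthest embryos. *Hhex* had r between 0.385 and 0.751 with them, and between 0.266 and 0.498 without the 2 farthest embryos. The adjusted permutation p for Pearson's r was under 0.05 in 1 of the 4 pairs of *Foxa1* (with *Ttr*) and in 2 of those of *Hhex* (with *Ttr* and *Afp*). For Spearman's rho this held in 0 pairs of *Foxa1* and in 1 of *Hhex* (with *Ttr*). In all, 18 of the 45 pairs had an adjusted permutation p under 0.05 for Pearson's r and 11 for Spearman's rho.

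**Figure D5:**
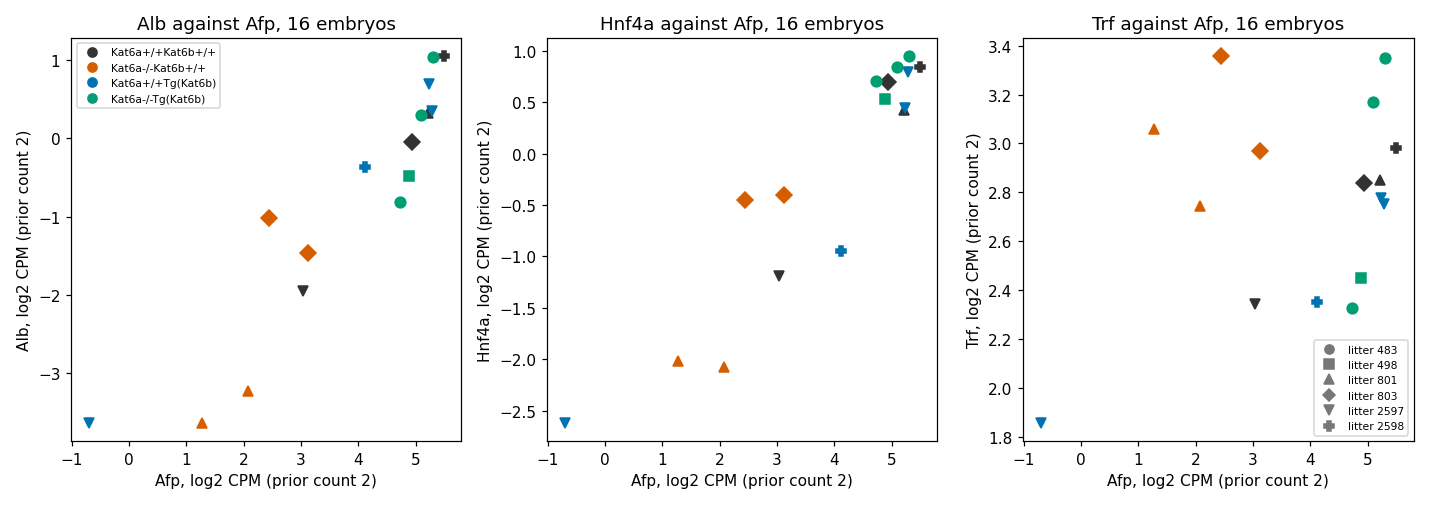
Log2 CPM of *Alb*, *Hnf4a* and *Trf* (y axes) against *Afp* (x axes) in the 16 embryos, coloured by genotype with symbols for litters. *Alb* and *Hnf4a* rise with *Afp* (Pearson's r 0.93 and 0.934), with the third *Kat6a+/+Tg(Kat6b)* embryo at the lower end, and *Trf* does so less (r 0.347).

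A mean log2 CPM of at least 0 was reached by 13966 genes, some of the 10 among them. Of the others, those most like the secreted proteins were *Serpinf2* (r = 0.966 with the mean of the 5 tested secreted-protein genes, over 16 embryos), *Ambp* (0.961), *Itih2* (0.949), *Habp2* (0.934) and *Gata4* (0.92). *Gata4* was also the most like the mean of the 4 transcription factors (r = 0.951), followed by the same 4 genes, *Ambp* at 0.929, *Serpinf2* at 0.919, *Habp2* at 0.917 and *Itih2* at 0.911. These values are given as a description, since the genes were picked for them. *Gata4*, which encodes a GATA factor of heart and endoderm, was at 20 to 32.9 CPM in wild-type, 19.4 to 23.5 CPM in *Kat6a-/-*, 12.2 to 32 CPM in *Tg(Kat6b)* and 29.5 to 33.8 CPM in *Kat6a-/-Tg(Kat6b)* embryos.

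Other regulators of endoderm and liver bud were taken from a list of 13 genes, of which 12 were tested. In *Kat6a-/-* vs. wild-type embryos 1 of the 12 fell, *Cebpa*, a leucine zipper factor of hepatocytes, from 3.35 to 2.08 CPM (log2 fold change -0.67, SE 0.155, edgeR FDR = 0.0277), and its call was kept in 4 of 10 other fits and in 10 of 16 that left out 1 embryo. In *Kat6a-/-Tg(Kat6b)* vs. *Kat6a-/-* embryos 2 rose. Of these, *Gata6*, needed in extraembryonic endoderm and heart, rose from 19.6 to 32 CPM (log2 fold change 0.66, SE 0.145, edgeR FDR = 0.0191). *Onecut2* fell in *Tg(Kat6b)* vs. wild-type embryos, from 21.3 to 13.3 CPM (-0.75, SE 0.129, edgeR FDR = 0.0298), and was higher in *Kat6a-/-Tg(Kat6b)* than in *Tg(Kat6b)* embryos (0.59, SE 0.143, edgeR FDR = 0.0372). The first call was kept in 2 of 10 other fits and the second in 3 of 9, whereas that of *Gata6* was kept in all 9 and in all 16 that left out 1 embryo. *Foxa2*, the third FOXA gene, was not called in *Kat6a-/-* vs. wild-type (0.086, SE 0.11, edgeR FDR = 0.76) or in *Kat6a-/-Tg(Kat6b)* vs. *Kat6a-/-* embryos (-0.14, SE 0.112, edgeR FDR = 0.5). The median log2 fold change of the 12 was -0.29 in *Kat6a-/-* vs. wild-type and 0.14 in *Kat6a-/-Tg(Kat6b)* vs. *Kat6a-/-* embryos.

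Of 18 further secreted and lipid transport proteins 10 were tested, and none was called in any comparison. Their median log2 fold change was -0.43 in *Kat6a-/-* vs. wild-type and 0.52 in *Kat6a-/-Tg(Kat6b)* vs. *Kat6a-/-* embryos, with 9 and 2 of the 10 below 0. *Apoa2*, a protein of high-density lipoprotein, had 0 reads in 3 of the 4 *Kat6a-/-* embryos and 0.0893 to 0.961 CPM in wild-type embryos (log2 fold change -3.16, SE 0.998, edgeR FDR = 0.14). *Fgb*, a fibrinogen chain, averaged 1.61 CPM in wild-type and 0.192 CPM in *Kat6a-/-* embryos (-2.86, SE 1.08, edgeR FDR = 0.239), and 2.16 CPM in *Kat6a-/-Tg(Kat6b)* embryos (3.17, SE 1.05 vs. *Kat6a-/-*, edgeR FDR = 0.0974). *Apoe*, the highest of the list and made in many tissues, was 36.7 to 47.4 CPM in wild-type and 41.5 to 44.9 CPM in *Kat6a-/-* embryos (0.047, SE 0.0962, edgeR FDR = 0.869). *Vtn*, the next highest, was 14.6 to 19.3 CPM in wild-type and 15.1 to 19.1 CPM in *Kat6a-/-* embryos (-0.0031, SE 0.0878, edgeR FDR = 0.991). *Apoa2* and *Fgb* are named after their values were seen.

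Markers of extraembryonic endoderm were measured beside these genes. Of 8 genes on that list 6 were tested, with 0 called in any comparison, and their summed level was 37.7 to 45.2 CPM in wild-type, 39.5 to 44.6 CPM in *Kat6a-/-*, 39.8 to 44.9 CPM in *Tg(Kat6b)* and 41 to 47.9 CPM in *Kat6a-/-Tg(Kat6b)* embryos. Most of that sum was *Lgmn*, which is also expressed elsewhere. *Rhox5*, a homeobox gene of visceral endoderm and trophoblast, was at 0.773 to 1.04 CPM in wild-type, 0.609 to 1.06 CPM in *Kat6a-/-*, 0.577 to 1.66 CPM in *Tg(Kat6b)* and 0.879 to 1.08 CPM in *Kat6a-/-Tg(Kat6b)* embryos. *Amn*, which anchors the uptake receptor of visceral endoderm, was between 0.166 and 0.678 CPM in all embryos and overlapped between the groups. It was counted only 3 to 13 times per embryo and was not tested. In the third *Tg(Kat6b)* embryo, with *Afp* at 0.536 CPM, *Amn* was 0.289 CPM and the list sum was 39.8 CPM, within the range of the other embryos. *Rhox5* at 0.577 CPM and *Apob*, also on the list, at 0.989 CPM were the lowest of the series there. No other gene of the list was lowest in this embryo, but some genes of other lists were, among them *Gata4*, *Krt8* and *Krt18*. The part of attached yolk sac in the secreted-protein values was not tested.

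Of the 4 visceral endoderm uptake genes 3 were tested. *Dab2*, an adaptor of endocytosis, rose in *Kat6a-/-Tg(Kat6b)* vs. *Kat6a-/-* embryos (0.26, SE 0.048, edgeR FDR = 0.00267). It also rose vs. wild-type embryos (0.21, SE 0.0494, edgeR FDR = 0.0472), a call kept in 2 of 9 other fits and in 6 of 16 that left out 1 embryo. The remaining 2 tested genes were not called. Their means were higher in *Kat6a-/-* than in wild-type embryos, 1.72 against 1.35 CPM for *Cubn* and 48.7 against 42.8 CPM for *Lrp2*. In *Kat6a-/-* vs. wild-type the median log2 fold change of the 3 was 0.18, with 1 of 3 below 0. The summed level of this list was 100 to 119 CPM in wild-type and 108 to 126 CPM in *Kat6a-/-* embryos. It was 92.8 to 115 CPM in *Tg(Kat6b)* and 114 to 126 CPM in *Kat6a-/-Tg(Kat6b)* embryos. Of 7 trophoblast markers 3 were tested, and *Hand1*, which is also a heart and lateral mesoderm gene, rose in *Kat6a-/-Tg(Kat6b)* vs. *Kat6a-/-* embryos from 12.3 to 28.7 CPM (1.16, SE 0.228, edgeR FDR = 0.0151). *Tpbpa*, a defining trophoblast marker, had no read in any embryo. The summed level of the trophoblast list was 22.1 to 26.9 CPM in wild-type, 11.8 to 17.6 CPM in *Kat6a-/-*, 13.7 to 27.8 CPM in *Tg(Kat6b)* and 27.2 to 35.9 CPM in *Kat6a-/-Tg(Kat6b)* embryos, most of it *Hand1*. As for *Afp*, the mean of this sum was lowest in *Kat6a-/-* embryos, but the sum did not follow *Afp* throughout. The third wild-type embryo, with *Afp* at 8.13 CPM, had a sum of 22.1 CPM, above all *Kat6a-/-* embryos. All *Kat6a-/-Tg(Kat6b)* sums lay above the wild-type sums. The part of this list in the result was not tested.

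Gut epithelium markers, 5 of 5 tested, included *Krt8* and *Krt18*, keratins of simple epithelium, which rose in *Kat6a-/-Tg(Kat6b)* vs. *Kat6a-/-* embryos by 0.31 (SE 0.0836, edgeR FDR = 0.0377) and 0.24 (SE 0.0612, edgeR FDR = 0.0237) on the log2 scale. *Krt18* also rose in *Kat6a-/-Tg(Kat6b)* vs. wild-type libraries (0.31, SE 0.063, edgeR FDR = 0.0213). In *Kat6a-/-Tg(Kat6b)* vs. *Kat6a-/-* the call of *Krt8* was kept in 5 and that of *Krt18* in 3 of 9 other fits, and vs. wild-type the call of *Krt18* was also kept in 3 of 9. The summed level of this list was 202 to 240 CPM in wild-type, 199 to 251 CPM in *Kat6a-/-*, 190 to 254 CPM in *Tg(Kat6b)* and 241 to 305 CPM in *Kat6a-/-Tg(Kat6b)* embryos. None of the 5 primitive erythroid markers was called. Their sum was 2979 to 4702 CPM in wild-type, 2505 to 4775 CPM in *Kat6a-/-*, 4106 to 5138 CPM in *Tg(Kat6b)* and 3209 to 3892 CPM in *Kat6a-/-Tg(Kat6b)* embryos, and the last 2 ranges did not overlap.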

How the data were processed

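Single whole E9.5 embryos were sequenced, 4 of each genotype. Per the paper and the labels, libraries were made with the TruSeq RNA v2 kit, and reads were aligned to mm39 and counted on genes with featureCounts. The authors deposited counts, whole numbers of reads per gene without normalization, with gene lengths, for 26411 genes. The strand setting is not given in the sources used here. From these counts, genes were kept by filterByExpr (minimum count 10, minimum total 15), which left 15679. TMM factors, 2 surrogate variables (hidden sources of variation estimated by sva 3.50.0 with genotype protected) and a robust quasi-likelihood fit over all 16 embryos (edgeR 4.0.16, R 4.3.3) gave each comparison. Adjustment was by Benjamini and Hochberg's method across the tested genes, the adjusted value is written as edgeR FDR, and the threshold was 0.05. RPKM used the deposited lengths. Correlations used log2 CPM (prior count 2) and two-sided permutation tests with 100000 permutations.

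Alternatives were fits with 1 surrogate variable or none, size factors of DESeq2, DESeq2 1.42.0 itself, limma-voom (limma 3.58.1), no filter, sex, replicate number or litter as a term, only the genotypes compared, and leaving out each embryo in turn. The fits had been tested on simulated data. The 10 genes and all lists were chosen with earlier results of these data known. The text names the 10 genes, list genes past the threshold and the 5 genes most like each of the 2 patterns, and some list genes besides. Gene positions come from GENCODE vM39 (GRCm39). The total count, 14407277 to 45665680 per embryo, limits the precision for genes with few reads. The values of 1 gene in the list of endoderm and liver bud regulators are not reported here.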

Additional observations from a re-analysis of the deposited data

Results flagged for a closer look

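Within each genotype, the highest and lowest of the 4 embryos were tested for a wide gap to the nearest other embryo. The threshold was a gap of more than 0.829 of the range of the group. For normally distributed values chance alone gives this in about 1 of 20 groups. That share does not hold for *Apoa4*, which had no read in 12 of 16 embryos. Of 38 groups tested, 3 values stood out. *Ttr* in the third *Kat6a-/-* embryo was 0.177 CPM against 0.564 CPM in the next (gap 0.896 of the range). *Apoa4* in the second *Kat6a-/-* embryo had 7 reads, 0.182 CPM, where the other 3 embryos had none (gap 1 of the range). With 3 values of 0, any read in the fourth embryo gives a gap of 1, so this flag tells nothing about its size. *Apoa4* in the first *Kat6a-/-Tg(Kat6b)* embryo was 0.286 CPM against 0.0444 CPM in the next (gap 0.845).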

How the results depend on the processing

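Of 730 refitted values of the 29 fold changes given above for the liver bud and visceral endoderm genes themselves, not the other lists, 690 kept their direction and their side of the threshold over 26 alternatives. The count of genes called in *Kat6a-/-Tg(Kat6b)* vs. *Kat6a-/-* embryos, 0 of 9, became 1 with DESeq2 and 3 in a fit of these genotypes only, and ran from 0 to 3 when single embryos were left out (3 without the third and 1 without the first *Tg(Kat6b)* embryo). In *Kat6a-/-* vs. wild-type embryos it ran from 0 to 1 (1 without the third *Tg(Kat6b)* embryo), and in the other comparisons it was 0 under every alternative. The cause was not tested. Signs reversed for log2 fold changes near 0. For *Foxa1* in *Kat6a-/-* vs. wild-type the value was 0.012 with limma-voom, 0.020 with no filter, and -0.11 to 0.042 leaving out single embryos. For *Foxa1* in *Kat6a-/-Tg(Kat6b)* vs. *Kat6a-/-* it was 0.11 with no and 0.10 with 1 surrogate variable, 0.016 with no filter, 0.10 with sex as a covariate, 0.11 with the replicate block, 0.11 with only these genotypes, and -0.058 to 0.069 leaving out single embryos. *Hhex* in *Kat6a-/-* vs. wild-type was 0.076 with litter as a block and -0.097 to 0.0063 leaving out single embryos. *Afp* in *Tg(Kat6b)* vs. wild-type was 0.25 with litter as a block and -0.71 to 0.30 leaving out single embryos, and *Hnf4a* there was -0.78 to 0.23. Vs. the wild-type group, *Afp* in *Kat6a-/-Tg(Kat6b)* embryos ran from -0.20 to 0.44, and from -0.0056 to 0.75 in *Kat6a-/-Tg(Kat6b)* vs. *Tg(Kat6b)* embryos. Replicate numbers did not mark pairs: deviations of same-numbered embryos correlated between -0.255 and 0.215 (mean 0.0369), and the replicate block called 0 of 9 genes in every comparison. Genes counted fewer than about 10 times in some embryos, *Alb*, *Ttr*, *Apoa1*, *Hnf4a* and *Foxa3*, are limited by depth.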
